A study of Mus musculus with 4 samples.

Results

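This report compares butyrate-treated with untreated mouse colonoids at 48 h, 2 of the 4 libraries of the series, across all genes outside a Hallmark Notch list of 32 genes. Colonoids are crypts of the colon kept in a gel, where stem cells divide and give rise to the mature cell types of the epithelium. The sample labels name wild-type colon organoids from a male mouse aged 24 weeks, whereas the methods of the study describe organoids of Hes1-GFP mice, and the genotype did not enter the comparison. Both cultures grew in a medium with EGF, Noggin, R-spondin, the GSK3 inhibitor CHIR99021 and the ROCK inhibitor Y-27632, and one of them also received 2 mM sodium butyrate. The labels date both libraries to day 2, and a second pair of libraries at 72 h shares no library with this one. Poly-A selected RNA of each culture was sequenced as 1 library, so that no difference could be set against replicate error. The table held 36144 gene names, and 11658 of them outside the Notch list reached a mean of at least 50 normalised counts over both libraries. Of the 32 Notch genes, 27 reached that level and were left out.

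Butyrate is a short-chain fatty acid that gut bacteria release from dietary fibre. Colonocytes take it up through monocarboxylate transporters and burn it in the mitochondria as a main fuel. It also inhibits several histone deacetylases, the enzymes that remove acetyl groups from histones and so tend to close chromatin, and it binds the receptor FFAR2 on the cell surface.

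The total count was 21567500 in the untreated and 24207840 in the butyrate library, and 18351 and 18828 genes had at least 1 count. Counts are given below as deposited, untreated first, whereas log2 fold changes (butyrate over untreated) rest on counts divided by DESeq2 size factors of 0.978 and 1.10, with a pseudocount of 1. Intervals in parentheses are exact 95% Clopper-Pearson intervals on the pair of counts. They cover counting error only, since each condition had 1 library. Reads without molecular identifiers cannot be traced to single molecules, so that even this error may not be covered in full. A count of 0 allows up to 3 counts, which is 0.139 CPM (counts scaled to a common library total) in the untreated and 0.124 CPM in the butyrate library. A gene is called higher or lower "beyond counting error" when its interval excluded 0. All 19 epithelial and colonic markers listed for the tissue passed the filter, and their median log2 fold change was −0.02.

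Most genes differed little between the cultures, and more of the genes past the filter were higher than lower by 2-fold or more. The median log2 fold change of all 11658 genes was −0.03, with quartiles of −0.24 and 0.22, and 84.4% of genes lay within 1.5-fold. At least 2-fold higher counts with butyrate were seen for 496 genes (4.25%), and at least 2-fold lower counts for 172 (1.48%). This balance depended on the filter, since 196 of the 496 higher genes passed it only through the butyrate library and 52 of the 172 lower genes only through the untreated one, and with no filter the numbers were 2330 and 1996, so that 53.9% of 2-fold genes were higher. At 4-fold or more the numbers were 125 and 29, and at 8-fold or more 33 and 7. The interval lay wholly beyond 2-fold for 313 of the higher and 88 of the lower genes. At this depth counting error is small for most genes, and 3604 genes (30.9%) were higher and 4086 (35%) lower beyond it, a rule that therefore says little without replicates. The genes at least 2-fold higher took 0.535% of all counts in the untreated and 1.43% in the butyrate library, whereas the lower genes took 0.514% and 0.192%. At the edge of the 2-fold rule, *Orc3* (588 and 1327 counts) was just inside and *Fam189b* (146 and 330) just outside on the higher side.

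**Figure D1:**
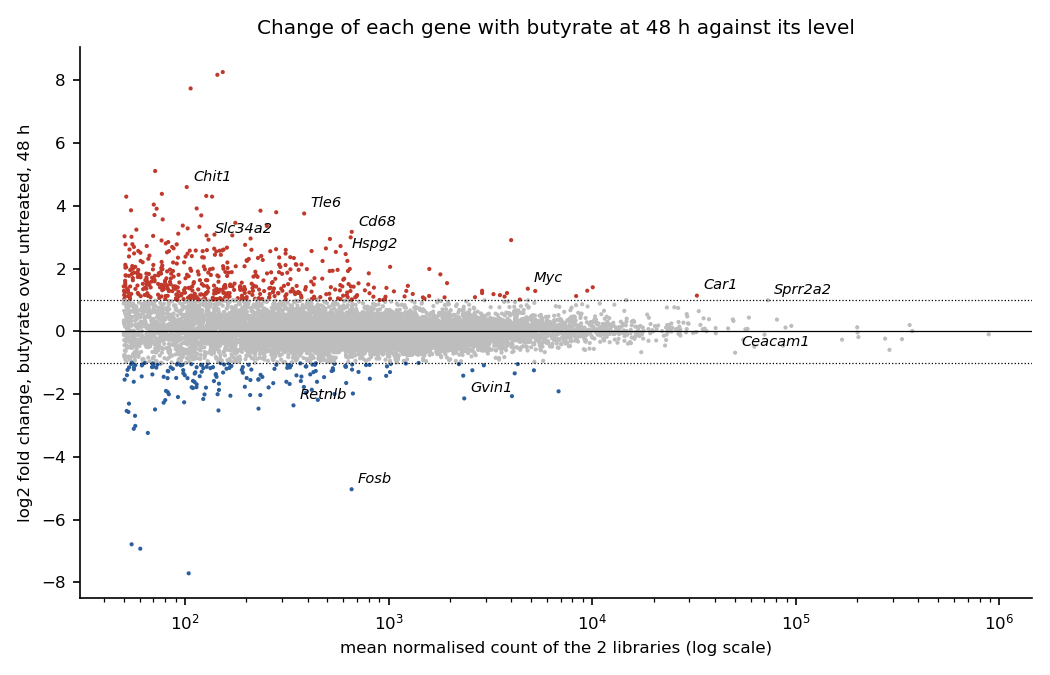
Log2 fold change of butyrate over untreated at 48 h (y axis) against the mean normalised count of both libraries (x axis, log scale) for 11658 genes; each point is a gene, red points are at least 2-fold higher, blue points at least 2-fold lower, and dotted lines mark 2-fold. The 496 red points outnumber the 172 blue points, and most of both lie at low counts.

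The genes with the largest changes were mostly close to silent in untreated colonoids. The promoters shown first are those of *Chit1* and *Fosb*, the named genes with the highest and lowest fold changes among genes with a mean of at least 100 normalised counts, and those of *Tmem37* and *Hspb1*, which had few counts without butyrate. Each line is the 250 bases before the RefSeq start site on GRCm38.p6, read 5′ to 3′ on the strand of the gene, and capitals mark the GC box (GGGCGG or its reverse complement CCGCCC, overlapping matches included), the motif bound by Sp1-family factors.

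Chit1, chr1:134110992-134111241, + strand: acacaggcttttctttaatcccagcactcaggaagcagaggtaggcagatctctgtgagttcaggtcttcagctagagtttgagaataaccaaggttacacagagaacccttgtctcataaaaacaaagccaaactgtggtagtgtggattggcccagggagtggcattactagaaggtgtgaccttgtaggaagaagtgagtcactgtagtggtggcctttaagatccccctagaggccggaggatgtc
Tmem37, chr1:120073781-120074030, − strand: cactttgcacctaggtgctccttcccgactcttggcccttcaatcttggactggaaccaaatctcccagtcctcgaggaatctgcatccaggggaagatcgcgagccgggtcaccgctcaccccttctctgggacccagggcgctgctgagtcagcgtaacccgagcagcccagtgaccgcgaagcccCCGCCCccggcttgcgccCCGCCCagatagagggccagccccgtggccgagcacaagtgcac
Hspb1, chr5:135887669-135887918, + strand: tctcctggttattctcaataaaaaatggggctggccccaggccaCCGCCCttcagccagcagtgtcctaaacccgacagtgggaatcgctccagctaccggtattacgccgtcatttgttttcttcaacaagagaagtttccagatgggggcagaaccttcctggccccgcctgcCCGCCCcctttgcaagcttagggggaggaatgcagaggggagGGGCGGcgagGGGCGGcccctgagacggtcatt
Fosb, chr7:19310046-19310295, − strand: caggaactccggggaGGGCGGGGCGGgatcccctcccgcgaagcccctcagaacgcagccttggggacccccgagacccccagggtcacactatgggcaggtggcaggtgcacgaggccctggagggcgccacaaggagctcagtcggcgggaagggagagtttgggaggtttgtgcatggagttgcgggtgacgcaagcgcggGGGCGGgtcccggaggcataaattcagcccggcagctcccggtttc

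The GC box occurred 4 times before *Hspb1*, 3 times before *Fosb*, 2 times before *Tmem37* and 0 times before *Chit1*, and 32.7% of all 32851 RefSeq promoter windows of this length hold at least 1. The AP-1 motif (TGACTCA or TGAGTCA) occurred 1 time before *Chit1* and 1 time before *Tmem37*, against 4.46% of all windows. TATAAA, in either direction, was in none of these 4 windows and in 12.4% of all. These matches describe the letters only. The windows include genes that are silent in colonoids, so that these shares are no measure for expressed genes. Motif shares over the higher and lower genes are void and not given, because the RefSeq table held a promoter for 74% of the higher and 65.1% of the lower genes, too few to stand for the sets.

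*Chit1*, on chromosome 1 (134111242 to 134151540, GRCm38), encodes a chitin-degrading enzyme known from macrophages and had the highest fold change of genes with a symbol of their own at that level, with 7 counts without and 217 with butyrate (log2 fold change 4.60, 3.71 to 6.11). *Cfap65*, a gene of motile cilia and sperm flagella, followed with 11 and 268 counts (4.32, 3.57 to 5.45). *Cdh3* encodes P-cadherin, a cell adhesion protein of basal epithelia, and had 12 and 286 counts (4.29, 3.58 to 5.37). The intervals of *Chit1*, *Cfap65* and *Cdh3* overlap, so that their order is not settled. *Tmem37*, a calcium channel gamma-like subunit, had 13 and 237 counts (3.92).
*Palm*, which encodes the membrane-bound protein paralemmin, had 29 and 485 counts (3.85). *Lgals1*, the gene of the sugar-binding protein galectin-1, had 36 and 578 (3.80, 3.35 to 4.36). *Tle6*, a Groucho-family gene best known from oocytes, had 51 and 791 (3.76). *Mogat2*, which re-esterifies absorbed fat in enterocytes, had 16 and 247 (3.70). The next members of the ranking were *C1qtnf1* (28 and 358), *Psmb8* (43 and 508), *Egfl7* (20 and 237) and *Sult4a1* (18 and 207), with log2 fold changes from 3.28 to 3.46. Of the 12 genes in this ranking, all but *Tle6* passed the filter only through the butyrate library. Larger ratios than that of *Ryr1*, described next, were seen for 6 predicted genes without a symbol of their own, each at 0 in one of the libraries at 48 h. For *Gm45234* the table gave 0 and 338 counts, then 213 and 399 in the later pair, and for *Gm45837* 0 and 318, then 534 and 5, so that such genes went on and off between libraries with and without butyrate, and they were not ranked.

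Between nearly no counts and a clear signal, 56 genes had at most 10 counts without and at least 50 with butyrate, and 50 of these carry a symbol of their own. The reverse was true of 6 genes, 2 with a symbol of their own. Both limits apply to counts as deposited, and the butyrate library had the larger total. How often genes cross these limits without butyrate was not tested. *Tmem35a* had 0 and 61 counts, which is at least 18-fold higher against the floor of 3 counts in the untreated library. *Ryr1*, the calcium release channel of skeletal muscle, had 3 and 154 counts. *Hspb1*, which encodes the small heat shock protein Hsp27, had 6 and 163. *Plb1* had 4 and 109, *Mxra8* 4 and 94, and *Map7d2* 3 and 74. Only these counts are of use for such genes, since intervals on the untreated side were wide (for *Ryr1*, log2 fold changes of 3.94 to 7.80). In the other direction *Habp2* went from 56 to 4 counts and *Naaladl2* from 53 to 10.

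Among the lower genes, *Fosb* stood apart. *Fosb*, on chromosome 7 (19302696 to 19310051), encodes a subunit of the AP-1 transcription factor and had 1250 counts without and 42 with butyrate (−5.03, −5.55 to −4.62). At 72 h the order was turned around, with 77 counts without and 590 with butyrate, so that the untreated library at 48 h held the most *Fosb* of all 4. *Cav1*, the main coat protein of caveolae, had 244 and 47 counts (−2.52), and *Sult1c2*, a sulfotransferase, 381 and 77 (−2.46). *Retnlb* encodes RELM-beta, a goblet cell protein with antibacterial activity, and had 559 and 122 counts (−2.36, −2.66 to −2.08). The interferon-inducible GTPase gene *Gvin1* was the most abundant of the group, with 3749 and 960 counts (−2.14). *Gpld1*, *Ttr*, *Clca3a1*, *Ccn1* and *Il1r1* had log2 fold changes between −2.18 and −2.03, and *Hao2* (196 and 54 counts) and *Cd200* (227 and 63) completed the ranking. *Ttr* encodes the thyroid hormone carrier transthyretin, *Ccn1* a matricellular target of YAP, and *Il1r1* the interleukin-1 receptor.

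**Figure D2:**
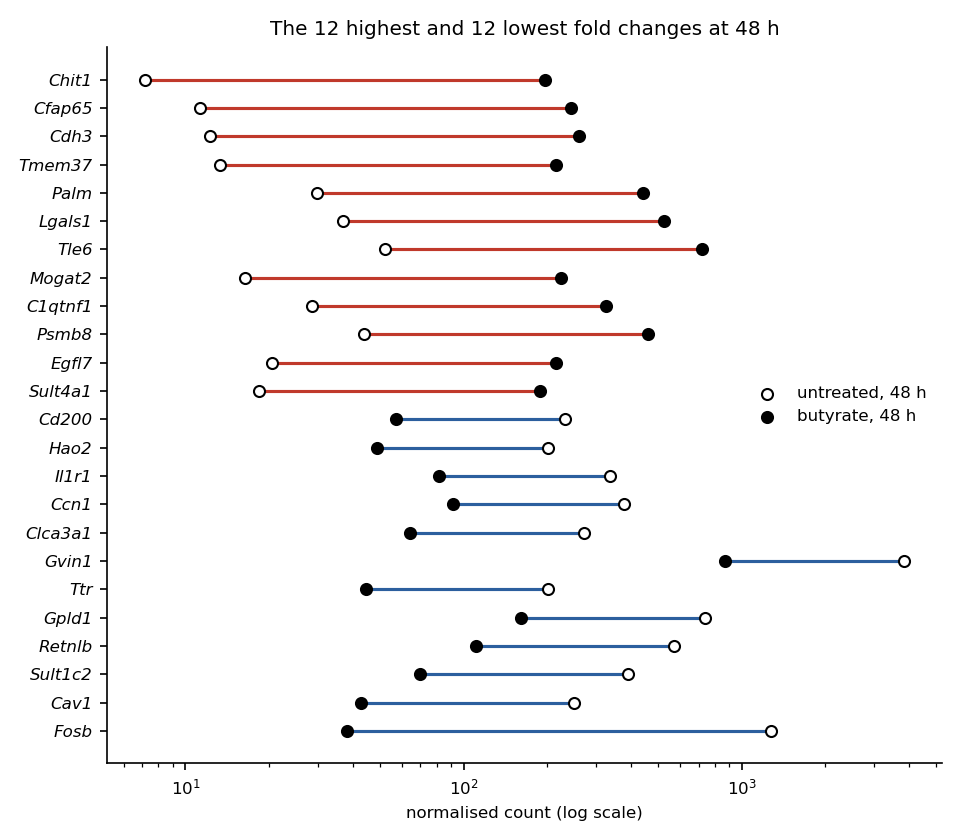
Normalised counts (x axis, log scale) of the 12 named genes with the highest and the 12 with the lowest fold changes at 48 h; open circles are the untreated library, filled circles the butyrate library, and lines join both values of a gene. *Chit1* has the widest gap among the higher genes and *Fosb* among the lower ones.

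In terms of the bulk of the RNA, other genes differed most. *Sprr2a2*, a small proline-rich protein of the epithelial surface, had 47689 and 106893 counts (0.99), and *Car1*, a carbonic anhydrase of mature colonocytes, 19941 and 49510 (1.14, 1.12 to 1.16). These were the largest gains in CPM of genes with a symbol of their own, followed by the glycolytic genes *Gapdh* (0.38), *Pkm* (0.44) and *Eno1* (0.64) and the antibacterial surface protein gene *Lypd8* (0.75). Among such genes outside the mitochondrial genome, the largest losses in CPM were those of *Eef1a1* (−0.26), the IgA transporter gene *Pigr* (−0.46), the adhesion gene *Ceacam1* (60580 and 42628 counts, −0.68), the mucin gene *Muc2* (−0.49), *Cd24a* (−0.66) and *Ddx5* (−0.45). Of the 2309 genes with a mean of at least 2000 normalised counts, 15 were at least 2-fold higher and 10 lower, a class looked at after the data were seen. The largest of these changes was that of the glutathione transferase *Gstp2*, with 918 and 7778 counts (2.91, 2.81 to 3.01), which has a near-identical neighbour in *Gstp1*. The peroxidase *Prdx6* (5348 and 14809 counts, 1.30), the lysosomal proteases *Ctsl* (2134 and 5360, 1.16) and *Ctsz* (2856 and 6503, 1.01), the brain-type creatine kinase *Ckb* (1954 and 5014, 1.19) and the acyl-CoA synthetase *Acsf2* (5123 and 12601, 1.13) were among the higher ones. On the lower side were the matrix protein gene *Thbs1* (3543 and 1690, −1.24), the actin cross-linker *Flna* (5673 and 3102, −1.04), the nucleosome-binding *Hmgn2* (3900 and 2075, −1.08) and *Cd177* (7108 and 3389, −1.24).

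To describe pathways, 71 gene lists were read beside all genes past the filter. Counts of list members called higher or lower are those beyond counting error unless 2-fold is named, and are to be set against the 30.9% of all genes that were higher and the 35% that were lower by that rule. Counts at 2-fold are to be set against 4.25% and 1.48%, and list medians against −0.03. Over all lists, 29 entries passed the filter only through the butyrate library, with fewer than 50 normalised counts without butyrate, and 11 only through the untreated one. Of the list members named below, the first kind were *H1fx*, *Notum*, *Car11*, *Krt14*, *Krt36*, *Nid1*, *H2-DMa*, *Psmb8*, *Ifitm1*, *Ifit2*, *Vwf*, *Sult1a1*, *Cyp2d22*, *Hspb1* and *Bco1*, and the second kind *Defa17*, *Fyb*, *Ifit1*, *Id4* and *Fosb*. List members past the filter numbered 1144, and 42 lists had a median above 0 and 29 below 0.

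Uptake and use of short-chain fatty acids was the first theme. Of 8 transporters and receptors past the filter, 5 were higher and 3 lower beyond counting error, with a median log2 fold change of 0.53. *Slc26a3*, the chloride-bicarbonate exchanger of the colonic surface, had 2983 and 8211 counts (1.29). *Slc16a3*, which encodes the monocarboxylate transporter MCT4, had 1937 and 4344 (0.99), and *Slc16a1*, which encodes MCT1, 2973 and 5778 (0.79). Their chaperone basigin, encoded by *Bsg*, had 18311 and 35168 (0.77). The sodium-coupled transporter *Slc5a8* (534 and 519) and the receptor *Ffar2* (139 and 84, −0.89, −1.31 to −0.50) were lower. The list's other MCT transporter, *Slc16a7*, was lower as well (300 and 226, −0.58), so that the MCT family went both ways.

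Fatty acid oxidation followed with smaller changes. Of 21 mitochondrial beta-oxidation genes, 13 were higher and 3 lower, none by 2-fold, with a median of 0.24. *Acsm3*, which activates medium-chain acids with coenzyme A, had a log2 fold change of 0.66, the short-chain dehydrogenase *Acads* 0.59 and the carnitine carrier *Slc25a20* 0.57. Among 19 PPAR targets the median was 0.22, and *Angptl4*, a secreted inhibitor of lipoprotein lipase, was highest with 105 and 521 counts (2.13, 1.83 to 2.45), whereas *Fabp2* was lower (−0.91). In glycolysis 15 of 18 genes were higher and 2 lower, with a median of 0.34 and *Pfkm* (0.99), *Hk1* (0.68) and *Pgam1* (0.66) in the lead. Sterol synthesis ran the other way, with 21 of 24 genes lower and 2 higher (median −0.20), among them the sterol reductase *Tm7sf2* (−0.59) and the isomerase *Idi1* (−0.48). Fatty acid synthesis (median 0.02, 16 genes) and the TCA cycle (0.05, 21 genes) lay near the background. Nuclear genes of oxidative phosphorylation had a median of 0.04 over 70 genes, and the 13 mRNAs of the mitochondrial genome one of −0.09. The mitochondrial genome gave 15.1% of counts without and 14.1% with butyrate.

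Among the targets of butyrate in chromatin, *Hdac1* stood out. It encodes a class I histone deacetylase and had 3167 and 7100 counts (0.99, 0.93 to 1.05). *Hdac3* was higher as well (0.30), whereas *Hdac7* (−0.77), *Hdac4* (−0.55) and *Hdac6* (−0.30) were lower, and *Hdac2* had 2433 and 2701 counts (−0.02). Of 15 genes for acetyltransferases and bromodomain proteins, which write and read acetylated histones, 12 were lower and 0 higher, with a median of −0.37. The leading ones were *Kat2b* (590 and 386 counts, −0.78), *Kat6b* (−0.68), *Crebbp* (−0.52) and *Brd3* (−0.45). The linker histone genes *H1fx* (33 and 149 counts, 1.97) and *H1f0* (4959 and 9611, 0.78) were higher, while the other variant histones lay at or below 0.28. Enzymes that write, read and erase acetylation were therefore not shifted as one block.

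Genes of the cell cycle went both ways. *Cdkn1a* encodes the CDK inhibitor p21 and had 2571 and 5630 counts (0.96, 0.89 to 1.03), and *Cdkn1c*, which encodes p57, had 122 and 338 (1.29). The growth regulator *Myc* had 2646 and 7657 counts (1.36, 1.30 to 1.42), *Ccnd2* 6191 and 12710 (0.87) and *Ccne1* 379 and 778 (0.86), whereas *Cdk4* (−0.52) and the inhibitor *Cdkn1b* (−0.63) were lower. Of 38 DNA replication genes 11 were higher and 12 lower (median 0.02), near the shares of 30.9% and 35% over all genes. Mitotic genes were lower in 17 of 30 and higher in 4 (median −0.13), with no 2-fold change and *Ndc80* (−0.53) and *Cenpe* (−0.50) lowest. Of 24 ribosome biogenesis genes 18 were higher and 1 lower (median 0.19), among them *Nop10* (0.60) and *Nop56* (0.50). An inhibitor of the cycle and *Myc* were thus higher in the same culture.

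Stem cell and lineage genes were described next. The marker of cycling crypt stem cells *Lgr5* had 7380 and 4341 counts (−0.94, −0.99 to −0.88), whereas *Msi1*, which encodes the RNA-binding protein Musashi-1, had 92 and 536 (2.36). *Bmi1* (1090 and 764, −0.68) and *Rgmb* (2727 and 2089, −0.56) were lower as well, and *Cd44* (0.26) and *Ephb2* (0.20) higher. Of 18 stem cell genes 8 were higher and 7 lower beyond counting error, with a median of 0.02. Among Wnt feedback genes, the secreted inhibitor *Notum* was higher (28 and 115 counts, 1.83) and *Bambi* lower (205 and 84, −1.45).
Colonocyte genes were higher in 12 of 18 and lower in 5, with a median of 0.17. Besides *Car1* and *Slc26a3*, the membrane-bound carbonic anhydrase *Car4* had 133 and 551 counts (1.87), whereas *Saa1* (165 and 60, −1.61) and *Slc37a2* (135 and 64, −1.24) were lower. Carbonic anhydrases hydrate carbon dioxide for bicarbonate exchange. Of 15 listed members 8 passed the filter, of which 7 were higher and 0 lower, with a median of 0.99, among them *Car11* (2.78), *Car12* (1.09) and *Car2* (0.89) besides those named. *Car11* passed only through the butyrate library. Among 23 brush border genes, *Espn*, an actin bundler of microvilli, was higher (357 and 1166, 1.53) and the peptidase *Dpp4* lower (1171 and 463, −1.51).

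Among genes of secretory cells, most of the goblet cell genes and enteroendocrine transcription factors were lower, whereas hormone genes had a median near 0. Of 19 goblet cell genes 13 were lower and 4 higher, with a median of −0.44. *Muc2*, the gel-forming mucin, had 71452 and 57372 counts, *Zg16* 1506 and 1067 (−0.67) and *Capn8* 157 and 71 (−1.30), whereas the chemokine gene *Ccl6* (651 and 2007, 1.45), the trefoil factor gene *Tff3* (3523 and 6776, 0.77) and *Clca1* (1427 and 2450, 0.61) were higher. Enteroendocrine transcription factors were lower in 8 of 11 and higher in 0, with the list median of −0.46 lowest of all lists with at least 5 genes. *Insm1* had 333 and 143 counts (−1.39, −1.69 to −1.11), *Myt1* 121 and 72 (−0.91) and *Nkx2-2* 140 and 96 (−0.71), while *Neurog3*, which specifies the lineage, had 423 and 512 (0.10).
Of 15 hormone and granin genes 5 were higher and 4 lower beyond counting error, near the 30.9% and 35% of all genes, with a median of 0.07. *Gcg* had 1310 and 1505 counts (0.03), *Pyy* 329 and 381 (0.04) and *Chga* 1559 and 1839 (0.07), each within counting error. *Tph1*, which makes serotonin in enterochromaffin cells, was highest with 83 and 220 counts (1.22, 0.86 to 1.62), followed by *Scg5* (0.92), *Nts* (0.67), the granin *Chgb* (4051 and 6041, 0.40) and *Cpe* (0.23). The lower members were *Scg3* (−0.75), *Cck* (−0.38), *Insl5* (266 and 235, −0.35) and the prohormone convertase *Pcsk1* (−0.31).
Of 9 tuft cell genes 3 were lower, 1 was higher and 5 were within counting error, beside 35% lower and 30.9% higher over all genes. Their median was −0.24, and *Fyb* was lowest (164 and 53 counts, −1.78). All listed tuft cell genes together had 1022 CPM without and 661 with butyrate, of which *Cd24a* alone had 967 and 613. Of 10 Paneth-like genes 6 were lower and 3 higher, with a median of −0.27 and with the defensin genes *Defa17* (97 and 16 counts) and *Defa24* (193 and 62) lowest, *Kit* lower (−0.94) and *Pla2g2a* higher (0.81). Defensin genes have near-identical copies, among which pseudoalignment may share reads. In bulk RNA, fewer cells of a type and less RNA per cell cannot be told apart.

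**Figure D3:**
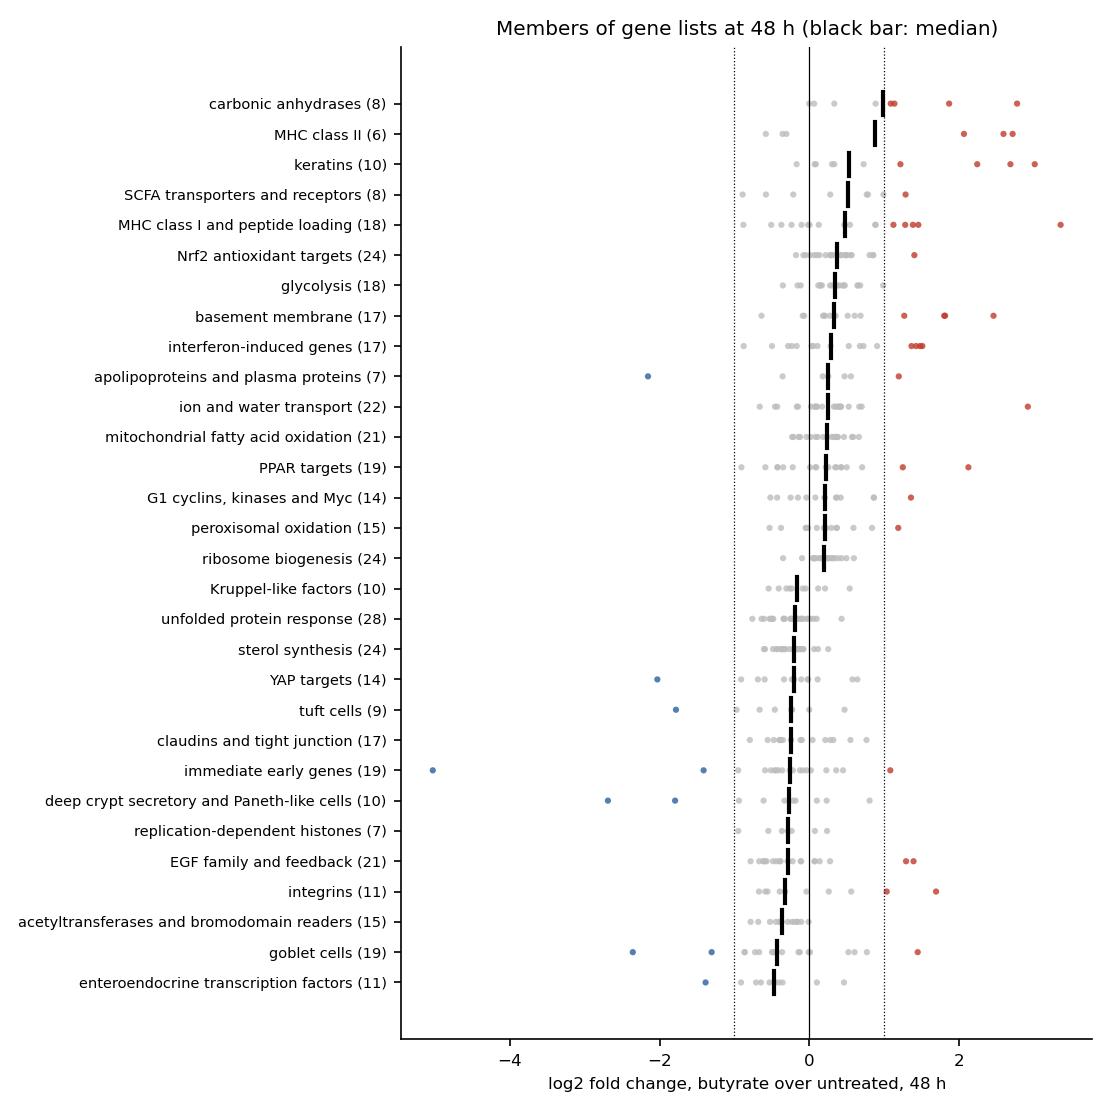
Log2 fold changes at 48 h (x axis) of the members past the filter of 30 gene lists, the 16 with the highest and the 14 with the lowest medians among lists with at least 5 such members (numbers in parentheses); points are genes, red and blue marking 2-fold, and black bars are list medians. The carbonic anhydrases have the highest median (0.99) and the enteroendocrine transcription factors the lowest (−0.46).

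Keratin and basement membrane genes were mostly higher. Of 10 keratins 9 were higher and 1 lower, with a median of 0.53. *Krt14*, a keratin of basal skin cells, had 11 and 108 counts (3.01), *Krt36*, a hair keratin, 22 and 166 (2.69), *Krt4*, of stratified mucosa, 213 and 1143 (2.25), and *Krt23* 97 and 256 (1.22). Of these 4, *Krt14* and *Krt36* passed the filter only through the butyrate library. The keratins of simple epithelium were near no change, with *Krt8* at 33833 and 40538 counts (0.09) and *Krt18* at 9480 and 9507 (−0.17). Of 17 basement membrane genes 4 were at least 2-fold higher, 11 were higher and 1 lower beyond counting error, and the median was 0.33. Of the 4, *Nid1* passed only through the butyrate library. *Hspg2*, which encodes perlecan, had 184 and 1149 counts (2.46, 2.24 to 2.70), *Lama5*, the laminin chain of the intestinal basement membrane, 776 and 3084 (1.82), *Nid1* 44 and 176 (1.80) and *Col18a1* 155 and 423 (1.27). The laminin chain *Lama3* was lower (811 and 587, −0.64). Of 11 integrins 6 were lower and 4 higher, with a median of −0.32 that was 0.11 with no filter. *Itgb5* (199 and 729, 1.70) and *Itga5* (128 and 297, 1.04) were at least 2-fold higher.

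Antigen presentation was a further theme. The class II invariant chain gene *Cd74* had 149 and 1112 counts (2.72, 2.48 to 2.98), the class II beta chain *H2-Ab1* 86 and 592 (2.60) and the peptide exchange factor *H2-DMa* 46 and 221 (2.07), the last past the filter only through the butyrate library. Below the filter, *H2-Eb1* had 8 and 74 counts and *H2-DMb1* 18 and 49. The class II alpha chain *H2-Aa* had 6 and 5 and the class II transactivator *Ciita* 7 and 15. *H2-DMb2*, *H2-Oa* and *H2-Ob* had 2 or fewer in both libraries. By contrast the class II regulators *Rfx5* (−0.31), *Rfxank* (−0.36) and *Rfxap* (−0.58) were lower. The median over the 6 members past the filter was 0.88 but −0.31 among members with a mean of at least 200 counts. Of 18 genes of class I and peptide loading 11 were higher and 4 lower (median 0.47). The immunoproteasome subunits *Psmb8* (43 and 508, 3.36) and *Psmb9* (49 and 136, 1.28) and the peptide transporter *Tap2* (113 and 352, 1.46) were higher, while *Psmb10*, the other immunoproteasome subunit, had 502 and 307 counts (−0.88). Reads of class I genes such as *H2-Q1* (70 and 208) may be shared with near-identical copies. Among 17 interferon-induced genes, *Ifitm1* (37 and 121, 1.51), *Ifit2* (34 and 109, 1.48), *Ifi27* (118 and 360, 1.43) and *Bst2* (149 and 435, 1.37) were at least 2-fold higher, the first 2 of them past the filter only through the butyrate library. In all 9 of them were higher and 5 lower beyond counting error (median 0.29), the lower ones including *Ifit1* (79 and 48, −0.88), *Ifitm3* (2373 and 1894, −0.50), *Oasl1* (−0.28) and *Stat2* (−0.17).

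Markers of cells other than epithelium were read beside these genes. Of 18 immune cell markers, 15 had at most 10 counts in both libraries, and *Cd3e*, *Adgre1*, *Itgax* and *Tyrobp* had 0 or 1. Only *Cd68* and *Cd14* were past the filter. *Cd68*, a lysosomal glycoprotein of macrophages, had 128 and 1309 counts (3.17, 2.92 to 3.46), and *Cd14*, the co-receptor for lipopolysaccharide, 534 and 221 (−1.44). The other 16 markers summed to 68 counts without and 64 with butyrate, and the leukocyte gene *Ptprc* had 5 and 6. Fibroblast and muscle markers summed to 330 and 420 counts over 15 genes and endothelial and glial markers to 112 and 180 over 11, with *Col1a2*, *Col3a1*, *Lum*, *Cdh5* and *Sox10* at 2 or fewer in both libraries. Of the 3 fibroblast and muscle markers past the filter, 1 was higher and 0 were lower, with a median of −0.16: *Vim* had 89 and 139 counts (0.47, 0.08 to 0.87), *Pdgfrb* 80 and 68 (−0.40, −0.90 to 0.08) and *Thy1* 119 and 120 (−0.16, −0.54 to 0.22). The only endothelial and glial marker past it, *Vwf*, had 43 and 90 (0.88, 0.35 to 1.45). Below the filter, *Postn* had 15 and 53 counts and *Kdr* 8 and 1. The part of other cells in these results was not tested beyond these sums.

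Detoxification and stress genes differed in direction. Of 24 Nrf2 targets, the antioxidant enzymes, 20 were higher and 3 lower, with a median of 0.37. *Gstp1* had 5390 and 16097 counts (1.41), with reads that may be shared with its near-identical copies, *Gsta4* 1348 and 2754 (0.86) and *Prdx1* 8960 and 18214 (0.85). Of 33 xenobiotic and conjugating enzymes, 8 were at least 2-fold higher and 1 lower, 18 were higher and 13 lower beyond counting error, and 3 of the 8 passed the filter only through the butyrate library. The median was 0.13 but −0.06 among members with a mean of at least 200 counts. *Sult1a1*, which sulfates phenols, had 37 and 265 counts (2.64), *Cyp2d22* 14 and 102 (2.61), *Gstt1* 130 and 580 (1.98) and *Cyp1a1*, a target of the aryl hydrocarbon receptor, 323 and 1038 (1.51). The unfolded protein response ran lower, in 20 of 28 genes with 2 higher (median −0.19), led by *Ddit3* (−0.76), *Ern2* (−0.64) and *Dnajc3* (−0.60). Heat shock genes had a median of 0.07, with *Hspb1* (6 and 163 counts, 4.38, 3.44 to 6.06) far above the others.

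Ligands, receptors and early response genes came last. In the EGF family, the ligands *Ereg* (456 and 1353 counts, 1.39) and *Areg* (1630 and 4508, 1.29) were higher, whereas the receptors *Egfr* (1081 and 794, −0.62) and *Erbb3* (−0.60) and the feedback inhibitor *Spry1* (−0.67) were lower, so that 12 of 21 genes were lower and 4 higher (median −0.29). In BMP and TGF-beta signalling, the target genes *Id4* (117 and 13 counts, −3.24, −4.29 to −2.51) and *Id2* (734 and 350, −1.24) were lower, *Id1* (712 and 752) and *Id3* (208 and 204) were within counting error, and the ligand genes *Bmp8b* (364 and 970, 1.24) and *Tgfb1* (162 and 388, 1.08) were higher. Besides *Fosb*, 10 of the other 18 immediate early genes were lower, *Fos* most (3306 and 1400, −1.41), and *Ier3* was higher (1180 and 2821, 1.08). As for *Fosb*, the order of *Fos* was turned around at 72 h (958 and 1510 counts, 0.79, 0.67 to 0.90). The retinoid pathway had 6 of 14 genes higher and 6 lower, with a median of −0.01. *Bco1*, which cleaves beta-carotene to retinal, had 40 and 269 counts (2.55), the retinol receptor *Stra6* 57 and 168 (1.37), the retinoic acid hydroxylase *Cyp26b1* 104 and 295 (1.32) and the dehydrogenase *Aldh1a1* 1690 and 4441 (1.22), whereas *Lrat*, which stores retinol as esters, had 129 and 69 (−1.06).

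Ranked over 717 Reactome sets of 10 to 100 genes, medians were highest for elastic fibre formation (0.51, 17 genes), which *Ltbp3*, *Ltbp4* and *Itgb5* led, and for the molecules associated with elastic fibres, a subset of it. The endosomal-vacuolar pathway (0.48) and the immunoregulatory interactions (0.48) both hold class I genes such as *H2-Q7*, and acyl chain remodelling of phosphatidylcholine (0.44), phosphatidylglycerol (0.42) and phosphatidylethanolamine (0.41) and the inwardly rectifying potassium channels (0.41) completed the first 8. The lowest medians were those of histone demethylases (−0.35, 17 genes), other semaphorin interactions (−0.34), cohesin loading (−0.33) and mitotic telophase (−0.30), followed by G alpha s signalling, the tetrasaccharide linker of proteoglycans, sister chromatid cohesion and TRAF6-mediated IRF7 activation, at −0.27 to −0.28. Many of these sets share members, so that they are not separate observations.

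Of the 496 genes higher at 48 h, 172 (34.7%) were also at least 2-fold higher in the pair of libraries at 72 h, where 2.40% of all genes were. The opposite 2-fold change was seen for 11, and 84.5% had the same sign. Their median log2 fold change was 1.48 at 48 h and 0.70 at 72 h. Of the 172 lower genes 48 (27.9%) were at least 2-fold lower at 72 h, against 1.69% of all genes, 5 had the opposite change and 83.1% the same sign, with medians of −1.31 and −0.60. Seen from the later time, with the filter of 50 mean normalised counts set on the libraries at 72 h, 137 of 256 higher genes (53.5%) and 43 of 179 lower genes (24.0%) had also been called at 48 h. These numbers are below 172 and 48 because not every gene called at 48 h passed that filter. Among named genes, *Hspg2* (236 and 1147 counts at 72 h, 2.41), *Lama5* (927 and 3640, 2.10), *Krt4* (202 and 1127, 2.60), *Cd74* (73 and 454, 2.75) and *Bex1* (84 and 599, 2.95) were at least 4-fold higher at 72 h. *Retnlb* had 1158 and 20 counts at 72 h (−5.66). By contrast *Car1* had 35077 and 17453 counts at 72 h (−0.88), *Car4* 187 and 130 (−0.39), *Slc26a3* 4385 and 3498 (−0.20) and *Lgr5* 5108 and 8068 (0.79), each with the opposite sign to 48 h. *Krt36* had 23 and 12 counts (−0.76), within counting error at 72 h (−1.95 to 0.26). Culture age and treatment time change together between the pairs, and their parts cannot be told apart.

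**Figure D4:**
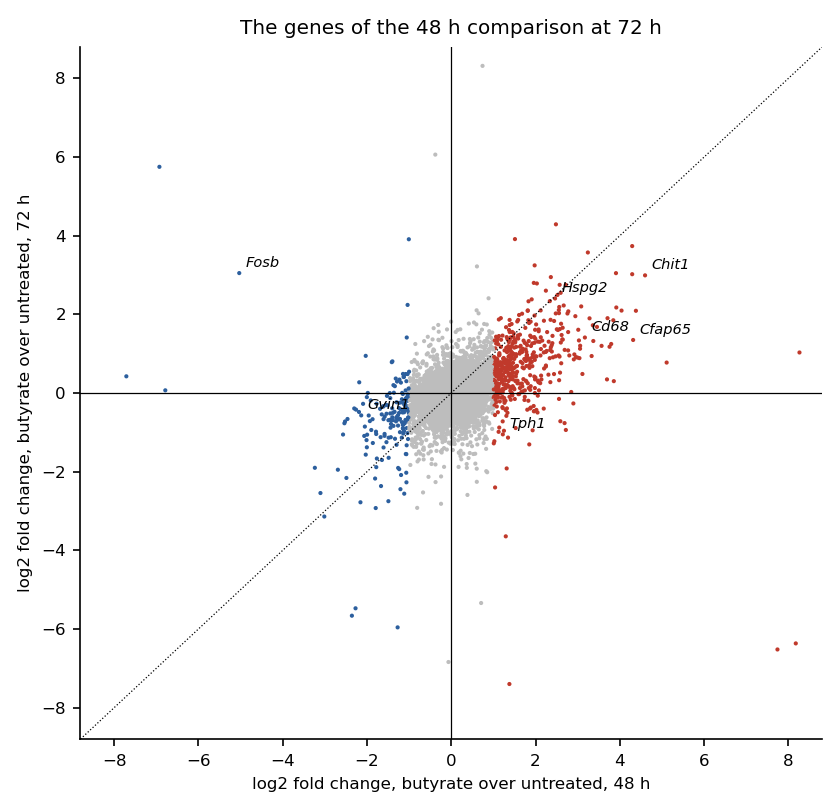
Log2 fold changes of butyrate over untreated at 48 h (x axis) and 72 h (y axis) for the genes of the 48 h comparison; red and blue mark genes at least 2-fold higher or lower at 48 h, and the dotted line marks equal values. Of the 496 red genes 419 lie above 0 at 72 h, and *Fosb* and *Tph1* lie in quadrants of opposite sign.

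Level and exon length moved with the calls. Genes at least 2-fold higher had a median of 66.5 normalised counts without and 215 with butyrate, the lower genes 222 and 80.7, and all genes 740 in the untreated library. In the class from 50 to 200 mean counts, 319 of 2000 genes were at least 2-fold higher and 98 lower, whereas of the 676 genes with at least 5000 only 5 were higher and 2 lower. Median exon length was 3584 bases for the higher, 4102 for the lower and 4467 for all genes. Over 5 classes of genes of equal size, from the shortest to the longest, the median log2 fold change went from 0.09 through 0.02, −0.03 and −0.07 to −0.11, and the share at least 2-fold higher from 6.76% to 2.02%. Taking out the median of genes of like length turned the small positive medians of 2 lists, those of oxidative phosphorylation to −0.06 and of cytosolic ribosomal proteins from 0.07 to −0.03. The part of RNA quality in this gradient was not tested.

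**Figure D5:**
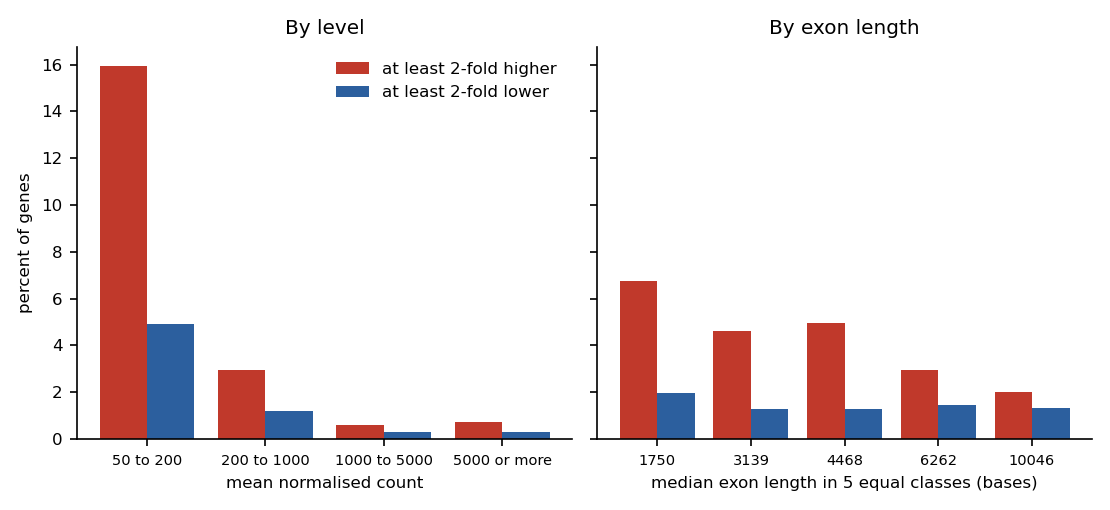
Percent of genes at least 2-fold higher (red) and lower (blue) with butyrate at 48 h, by mean normalised count (left) and by 5 classes of exon length, labelled with their median in bases (right). The share of higher genes is 15.95% in the lowest level class and 6.76% in the class of shortest genes.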

How the data were processed

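Colonoids were sequenced as 1 poly-A library per condition, untreated or with 2 mM butyrate, at 48 h and 72 h. The authors deposited estimated counts per gene, rounded to whole numbers and neither normalised nor filtered. Transcripts were quantified by pseudoalignment and summed with tximport, and the submitters' processing notes name kallisto 0.44.0 and the build GRCm38.p6. Such estimates share reads between near-identical genes. In the table, 26 gene names had been turned into dates, and 2 names were listed 2 times, and neither were named.

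Library totals lay between 20790225 and 24207840 counts. Size factors were computed with DESeq2 1.42.0 from all 4 libraries over the 13979 genes that passed the filter of the methods (over 10 counts, 2 or more libraries). Log2 fold changes used a pseudocount of 1, genes needed a mean of at least 50 normalised counts over the libraries at 48 h, and calls were a 2-fold change or an exact 95% Clopper-Pearson interval excluding 0. With 1 library per group no p-value was computed. Fold changes were tested on simulated data. TMM factors came from edgeR 4.0.16, and Reactome sets from the example data of an R package (6998 of 7111 identifiers matched to symbols), in R 4.3.3. Other steps used Python 3.11.15 with scipy 1.17.1, pandas 2.3.3, numpy 2.4.6 and, for figures, matplotlib 3.10.9. Gene positions came from GENCODE on GRCm38 and promoters from RefSeq on GRCm38.p6, for 35922 and 16910 of the names.

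Named genes with a symbol of their own were the 12 highest and 12 lowest fold changes at a mean of at least 100, the 6 largest gains and losses in CPM, the 8 largest changes between at most 10 and at least 50 counts in each direction, and on each list the 4 largest changes and members whose role is explained. *Bex1* was named from the list of neuronal genes. *Gstp2*, predicted genes and other abundant genes past 2-fold were named after their values were seen. Some listed genes are not reported here. The Notch list was written down from knowledge of the Hallmark collection. The comparison, members and lists were chosen with earlier results of these data known. Alternatives were other scalings, filters, a pseudocount and thinning (20 draws), and after the data were seen, a correction for exon length and sums without single members.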

Additional observations from a re-analysis of the deposited data

Results flagged for a closer look

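The direction of 2 named genes was at least 2-fold one way at 48 h and at least 2-fold the other way at 72 h, with both counting intervals excluding 0. The log2 fold change of *Fosb* was −5.03 (interval −5.55 to −4.62) at 48 h and 3.05 (2.72 to 3.43) at 72 h. *Tph1* had 1.22 (0.86 to 1.62) at 48 h and −1.05 (−1.48 to −0.65) at 72 h. The difference between the times was not tested, since each condition has 1 library. Of 298 named genes, 39 had opposite signs at both times beyond counting error, and 29 of the 71 lists had medians of opposite sign.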

How the results depend on the processing

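No paired analysis was possible because there were no replicates to pair or to leave out. The shares of promoters with each motif, at either filter, are void and not given, since too few genes had a promoter. TMM, total count scaling, size factors from the 48 h libraries, a pseudocount of 5, thinning and removal of the exon length gradient (chosen after seeing the data) kept all 4 counts of calls within 1.5 times, and scaling moved the median of all genes by at most 0.02. The filter set the counts. Genes at least 2-fold higher numbered 969 under the filter of the methods, 177 at a mean of at least 200 and 2330 without a filter, and genes at least 2-fold lower 429, 74 and 1996. The percent of 2-fold genes that were higher went from 74.3% to 69.3%, 70.5% and 53.9% in the same order. Without a filter, 28.9% of the higher and 18.6% of the lower genes were called again at 72 h, and at a mean of at least 200 the value for lower genes was 20.3%. These shifts follow from which genes a filter admits.

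Named genes called beyond counting error kept their sign under the scalings, the pseudocount, thinning and the length correction. Over all alternatives, list medians stayed within the counting interval of the reported value 574 times, moved out of it 52 times and changed sign 12 times where that interval excluded 0. Of the 52, 13 were at a mean of at least 200, 12 with no filter, 10 under the length correction and 8 under the filter of the methods. Of the values for named genes, 54 moved out of their interval and 1728 stayed in it. Removing the length gradient gave −0.060 for nuclear oxidative phosphorylation and −0.029 for cytosolic ribosomal proteins. A mean of at least 200 gave −0.31 for MHC class II and −0.059 for xenobiotic enzymes. The filter of the methods gave 0.010 for replication-dependent histones and −0.57 for the immune cell markers. No filter gave 0.28 for the replication-dependent histones, 0.11 for integrins, 0.24 for BMP and TGF-beta signalling, −0.36 for apolipoproteins and plasma proteins, −0.073 for germline genes and −0.016 for endothelial and glial markers. Depth limits genes with few counts: the median interval was 0.81 wide on the log2 scale from 50 to 200 counts and 0.09 at 5000 or more.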
